A study of Mus musculus with 14 samples.

Results

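Gene expression was compared between the MaSC-enriched cells and the luminal cells of virgin mouse mammary glands, with 3 arrays of each population out of 14 arrays in the study. The 6 arrays were chosen by their labels alone, as virgin MaSC-enriched replicates 1 to 3 and virgin luminal replicates 1 to 3. All mice were FVB/NJ females, an inbred strain, and carried no named transgene or treatment. Their age and the number of animals in a pool were not given. Each replicate came from a pool of glands, and there were 3 pools of virgin mice and 4 pools of mice at day 12.5 of pregnancy. Glands were digested to single cells, and cells that carried CD45, CD31 or TER119, the surface markers of leukocytes, endothelium and red cells, were left out. Of the rest, cells with high CD29 (the integrin encoded by Itgb1) and CD24 (encoded by Cd24a) formed the MaSC-enriched population, and cells that also carried CD24 but had low CD29 formed the luminal population, each sorted to a purity above 90%. The MaSC-enriched gate takes in the whole basal layer, in which stem cells are a minority beside mature myoepithelial cells, and the luminal gate takes in both progenitors and hormone-receptor-bearing cells. The 8 arrays of pregnant mice, 4 of each population, entered the same fit and are used below only to ask whether a difference between the populations was the same in both states.

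The mammary epithelium is a bilayer. Luminal cells line the duct, carry simple keratins and tight junctions, sense estrogen and progesterone, and in lactation make milk, whereas basal cells lie on the basement membrane, carry stratified keratins and smooth muscle proteins, and contract to eject milk. Cells that regenerate a gland on transplantation have been found in the basal gate, and much of the signalling that directs branching passes between the layers, as secreted Wnts, Notch ligands, neuregulins and RANK ligand.

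Total RNA was hybridised to single-colour Illumina bead arrays, and levels are given as log2 normalised intensity, on a scale that ran from 4.49 to 14.95. A difference is the MaSC-enriched mean minus the luminal mean in log2 units, with its standard error from limma's fit over all 14 arrays (n = 3 and 3), so that a positive value means a higher level in MaSC-enriched cells. A gene was called where its Benjamini-Hochberg adjusted p over all tested probes was below 0.05. A probe counted as detected on an array where its detection p, a comparison with the negative control beads, was below 0.05. Where no array of a population detected a gene, the difference is a bound, written as at least N-fold and set against the higher of the lowest detected signal and the probe's own value on each array. Such bounds and folds measure probe signal, and compression at the ends of the scale was not tested.

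Between 37.4% and 42.3% of probes were detected on a MaSC-enriched array and between 38.7% and 40.0% on a luminal array. Correlations over tested probes ran from 0.909 to 0.942 among MaSC-enriched arrays, from 0.949 to 0.976 among luminal arrays and from 0.811 to 0.853 between the populations. The MaSC-enriched arrays varied more among themselves, with a median standard deviation per probe of 0.436 against 0.291 for luminal arrays. A pair of arrays stood apart in the smooth muscle contractile genes. Luminal replicate 1 was the highest luminal array in 12 of 23 of these genes, and MaSC-enriched replicate 3 was the lowest of its group in 17. Over all tested probes luminal replicate 1 did not stand apart, with correlations of 0.976 and 0.970 to luminal replicates 2 and 3. Those 2 correlated at 0.949 with each other. Replicate 1 of both populations shared a bead chip, as did replicate 3 of both, while each replicate 2 lay on a chip without a virgin array of the other population. Of the 3649 genes called, 3644 differed in the same direction within the first of these chips and 3630 within the second. The arrays on these chips are among those that made the calls, so the agreement is partly built in and is no independent check.

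The sort and the labels could be checked against genes of known place. Itgb1, the CD29 integrin used for the gate, had levels of 9.0, 8.58 and 9.91 on the MaSC-enriched arrays and 8.19, 7.83 and 8.11 on the luminal arrays, a difference of 1.12 ± 0.28 (adjusted p = 0.00726), or 0.74 without MaSC-enriched replicate 3. Cd24a, the other gate marker, had levels of 6.79, 5.45 and 6.70 on the MaSC-enriched arrays and 8.21, 8.04 and 8.27 on the luminal arrays, and was not detected on 1 MaSC-enriched array. Its difference was -1.86 ± 0.34 (adjusted p = 6.38e-04). Neither pair of groups overlapped. Itgb1 went with the gate, and Cd24a was lower in MaSC-enriched cells although both populations were gated as carrying CD24. Epcam, an adhesion molecule that is stronger on luminal cells, read 5.51, 4.88 and 6.25 on the MaSC-enriched arrays and 7.20, 7.36 and 7.65 on the luminal arrays, a difference of -1.86 ± 0.30 (adjusted p = 2.06e-04), with detection on 1 of 3 MaSC-enriched arrays. Ptprc, which encodes CD45, was detected on none of the 6 arrays, whereas the CD31 gene Pecam1 was detected on all 6, at 7.17, 9.05 and 8.91 on MaSC-enriched and 7.55, 6.59 and 7.23 on luminal arrays. Both are shown because their proteins were used to leave cells out, and Pecam1 was chosen after its values were seen.

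Of 11350 genes tested, 1761 (15.5%) were called higher in MaSC-enriched cells and 1888 (16.6%) lower, and these shares are the background for every count of a gene group below. The gene lists were chosen with earlier results of these data known, so a share above these is no test of enrichment. In each of the 37 lists that had no call in one direction, at most 1 tested member had an unadjusted p below 0.05 in that direction. The 3 and 3 arrays did not overlap for 37.7% of all genes tested. Differences of at least 16-fold were found for 163 genes higher and 85 genes lower. Of the genes higher in MaSC-enriched cells, 391 were detected on no luminal array, and of those lower, 206 were detected on no MaSC-enriched array. The median difference over all genes was -0.04. Partial detection also limits some differences given below. On MaSC-enriched arrays, 1 of 3 detected Btc, Car2, Dmbt1, Epcam, Mylpf, Prr15l, Tlr4, Tph1 and Upk3a, and 2 of 3 detected Acta1, Ang4, Cd24a, Cldn6, Cyp3a57, Folr1, Kcnn4, Scnn1a and Tnfsf11. On luminal arrays, 1 of 3 detected Actg2, Adamts18, Bcl11b, Bmp7, Cald1, Ccnd2, Cdh3, Igfbp2, Itga9, Nrg1, Pdgfrb, Serpinb11, Slit2, Tagln and Trpv6, and 2 of 3 detected Axin2, Ccl2, Fabp5, Fstl3, Id4, Moxd1, Slit3, Snai2, Tnfsf11 and Trp63.

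The steepest rises in MaSC-enriched cells included many known products of the basal layer. Tenm2, a teneurin cell-surface adhesion protein, was at least 97.0-fold higher, at 12.10, 12.51 and 12.07 in MaSC-enriched cells, with no luminal array detecting it (adjusted p = 1.88e-09). Cxcl14, a chemokine of stratified epithelia, read 14.27, 14.48 and 14.15 on the MaSC-enriched arrays and 8.19, 7.62 and 6.55 on the luminal arrays, a difference of 6.85 ± 0.38 (adjusted p = 5.19e-09). Serpinb11, an intracellular serpin, had a difference of 6.86 ± 0.58 (adjusted p = 2.84e-07) and was detected on 1 luminal array. Moxd1, a monooxygenase-like protein, Reln, the secreted glycoprotein reelin, and the secreted binding proteins Igfbp3 and Igfbp2 differed by 6.63, 6.33, 6.31 and 6.14, with adjusted p of 2.77e-09, 3.77e-07, 3.32e-09 and 2.47e-07. The rest of the 15 largest rises were the keratin, adhesion and contractile genes described with their groups: Actg2, Myh11, Trp63, Myl9, Cdh3, Col17a1, Krt5 and Tagln.

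The steepest falls included enzymes, defence proteins and transporters of luminal cells. Cyp3a57, a cytochrome P450, read 4.67, 6.09 and 6.01 on the MaSC-enriched arrays and 13.06, 11.86 and 11.15 on the luminal arrays, a difference of -6.43 ± 0.49 (adjusted p = 1.16e-07). Ido1, which starts tryptophan breakdown, read 6.38, 7.90 and 7.45 on the MaSC-enriched arrays and 13.49, 13.45 and 12.12 on the luminal arrays and differed by -5.78 ± 0.37 (adjusted p = 2.22e-08). On both genes every luminal array lay above every MaSC-enriched array. Arg1, the arginase that makes ornithine, differed by -5.51 ± 0.38 (adjusted p = 4.40e-08), and Tph1, the first enzyme of serotonin synthesis, by -5.30 ± 0.59 (adjusted p = 5.20e-06). The antimicrobial ribonuclease Ang4 differed by -5.43, the mucosal glycoprotein Dmbt1 by -5.43 and the chemokine Cxcl15 by -6.10, with adjusted p of 9.38e-07, 5.34e-06 and 1.06e-07. Among transporters and surface proteins, the water channel Aqp5 differed by -5.51, the sodium iodide symporter Slc5a5 by -5.35 and the uroplakin Upk3a by -5.36, with adjusted p of 4.49e-09, 5.18e-08 and 2.33e-06. The transcriptional coregulator Cited1, the diamine oxidase Aoc1, the forkhead factor Foxa1, and Tlcd4 and Prr15l completed the 15, with differences between -5.42 and -5.21.

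**Figure D1:**
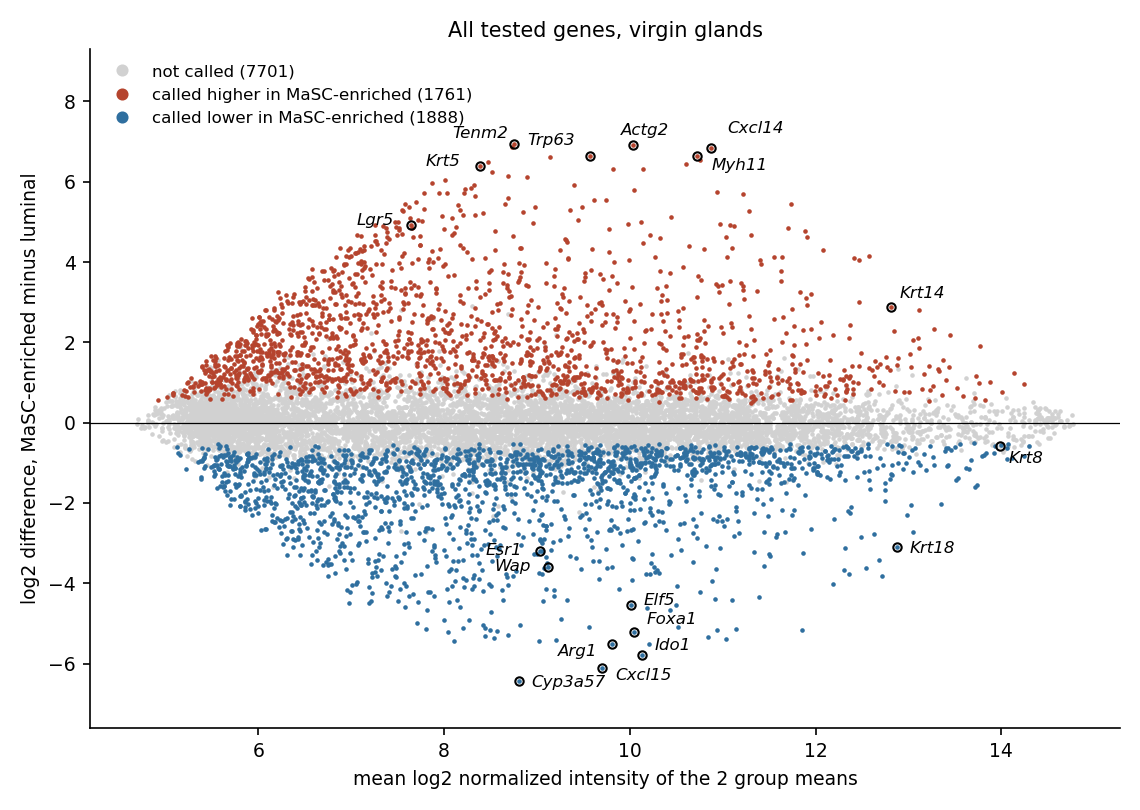
Log2 difference between MaSC-enriched and luminal cells of virgin glands (vertical axis) against the mean log2 normalised intensity of the group means (horizontal axis), 1 point per gene for 11350 genes. The 1761 genes called higher and the 1888 called lower lie on both sides of 0 over the whole range of intensity, and ringed points are genes described in the text.

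Basal identity genes were higher as a group. Of 18 tested members, 14 were higher, none lower and 4 did not pass, and the median difference was 3.64. Trp63, the p63 transcription factor that basal epithelia need, read 12.71, 13.80 and 12.17 on the MaSC-enriched arrays and 7.25, 6.03 and 5.47 on the luminal arrays. The groups lay far apart, 1 luminal array did not detect it, and the difference was 6.65 ± 0.52 (adjusted p = 1.32e-07). Krt5, the basal type II keratin, read 12.54, 12.45 and 9.77 on the MaSC-enriched arrays and 5.42, 5.13 and 5.02 on the luminal arrays, with MaSC-enriched replicate 3 the lowest of its group and no luminal array detecting it. It was at least 62.2-fold higher (adjusted p = 1.88e-07). Krt14, the partner keratin of Krt5, read 14.14, 14.24 and 14.41 on the MaSC-enriched arrays and 12.12, 9.71 and 12.28 on the luminal arrays, a difference of 2.89 ± 0.47 (adjusted p = 2.04e-04). Its luminal arrays were thus well above the bottom of the scale and its MaSC-enriched arrays close to the top. Luminal replicates 1 and 3 exceeded luminal replicate 2. Krt17 and Krt15, further basal keratins, differed by 4.63 ± 0.47 (adjusted p = 2.20e-06) and 3.87 ± 0.47 (adjusted p = 1.25e-05). Adhesion proteins of basal cells went with them. Cdh3, P-cadherin, read 11.48, 11.94 and 11.73 on the MaSC-enriched arrays and 5.72, 4.80 and 5.16 on the luminal arrays and differed by 6.49 ± 0.24 (adjusted p = 5.46e-10), and Col17a1, the collagen of hemidesmosomes, by 6.44 ± 0.29 (adjusted p = 1.88e-09). Lgr5, the R-spondin receptor that marks stem cells of several epithelia, read 10.45, 10.44 and 9.44 on the MaSC-enriched arrays and 5.22, 5.33 and 4.98 on the luminal arrays. It was detected on every MaSC-enriched array and on no luminal array, and was at least 22.3-fold higher (adjusted p = 8.03e-09). Bcl11b, a zinc finger factor described in quiescent basal cells, differed by 4.43 ± 0.31 (adjusted p = 4.79e-08). None of the 18 was lower at an unadjusted p below 0.05 either. Because these are bulk samples, fewer cells of a type and less RNA per cell cannot be told apart for any gene here.

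The smooth muscle contractile genes, the machinery by which myoepithelial cells squeeze the alveoli, had the largest share called higher of the 37 lists: 21 of 23 were higher and none lower, with a median difference of 2.97. At an unadjusted p below 0.05, 1 of the 23 was lower. Actg2, smooth muscle gamma-actin, read 13.83, 13.22 and 13.43 on the MaSC-enriched arrays and 8.68, 5.59 and 5.47 on the luminal arrays. Luminal replicate 1 lay about 3 log2 units above the other luminal arrays, and the difference was 6.91 ± 0.58 (adjusted p = 2.75e-07). Myh11, the smooth muscle myosin heavy chain, read 14.21, 14.14 and 13.78 on the MaSC-enriched arrays and 8.92, 6.69 and 6.58 on the luminal arrays, again with luminal replicate 1 the highest of its group, and differed by 6.65 ± 0.44 (adjusted p = 3.02e-08). Acta2, smooth muscle alpha-actin, read 14.41, 14.39 and 14.53 on the MaSC-enriched arrays and 13.73, 11.36 and 11.24 on the luminal arrays. Its MaSC-enriched arrays were close to the top of the scale, luminal replicate 1 came within 1 log2 unit of them, and the difference was 2.33 ± 0.46 (adjusted p = 0.00117). The call was lost with array weights, at 1.08 (adjusted p = 0.211), and the mean of all its probes gave 4.23. Tagln (transgelin, an actin-binding protein) differed by 6.24 ± 0.28 (adjusted p = 1.88e-09), and Myl9 (the regulatory light chain) by 6.54 ± 0.45 (adjusted p = 3.66e-08). Tpm2 (tropomyosin), Mylk (the kinase that switches the light chain on) and Cald1 (caldesmon) differed by 5.68, 5.44 and 4.83, with adjusted p of 1.05e-07, 1.36e-06 and 5.98e-08. Lmod1, a leiomodin that seeds actin filaments, was detected on no luminal array and was at least 10.9-fold higher (adjusted p = 1.78e-08). Without luminal replicate 1 or without MaSC-enriched replicate 3, between 20 and 22 of the 23 were called higher and none lower.

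Many smooth muscle genes are read through a CArG box, the element that serum response factor binds. The element was searched for, by its pattern of CC, then 6 bases of A or T, then GG, which reads the same on both strands, in RefSeq promoters of build GRCm38.p6, which run from 250 bases before to 50 bases after the gene's start. The contractile list holds Srf itself and genes of a kind often read through this element, so its share is no test of enrichment. The element was found for 5 of the 19 contractile genes with such a promoter (26.3%), against 154 of 9127 tested genes (1.69%) and 488 of all 27018 genes with one (1.81%). For 3 of these genes the 250 bases before the start are printed, 5′ to 3′ on the gene's strand with the box in capitals, because they show where the element lies in genes of this group: Myl9 at chr2:156775214-156775463 on the plus strand, Cnn2 (a calponin that binds actin) at chr10:79988350-79988599 on the plus strand, and Srf (serum response factor itself) at chr17:46556163-46556412 on the minus strand.
Myl9: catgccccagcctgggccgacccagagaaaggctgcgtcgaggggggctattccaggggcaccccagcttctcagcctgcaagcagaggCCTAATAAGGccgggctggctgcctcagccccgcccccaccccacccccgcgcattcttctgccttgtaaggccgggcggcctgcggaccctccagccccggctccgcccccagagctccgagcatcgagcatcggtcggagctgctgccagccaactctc
Cnn2: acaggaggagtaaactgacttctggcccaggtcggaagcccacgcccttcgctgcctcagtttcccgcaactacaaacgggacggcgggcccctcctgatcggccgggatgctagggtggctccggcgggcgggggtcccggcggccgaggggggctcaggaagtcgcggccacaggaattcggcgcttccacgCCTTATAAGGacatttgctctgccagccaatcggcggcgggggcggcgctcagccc
Srf: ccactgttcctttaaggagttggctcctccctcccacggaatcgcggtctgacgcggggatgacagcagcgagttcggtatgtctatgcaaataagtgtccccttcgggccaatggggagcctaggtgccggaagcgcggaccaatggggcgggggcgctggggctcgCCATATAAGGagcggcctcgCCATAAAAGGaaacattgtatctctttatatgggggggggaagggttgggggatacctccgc

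Counted from the gene's start, the box began at base -161 in Myl9, at base -56 in Cnn2 and at bases -82 and -62 in Srf. Cnn2 and Srf were picked for this element after their values were seen. Cnn2 read 9.97, 10.03 and 9.11 on the MaSC-enriched arrays and 7.77, 7.27 and 6.96 on the luminal arrays, a difference of 2.37 ± 0.27 (adjusted p = 6.47e-06). Srf read 12.21, 13.23 and 11.93 on the MaSC-enriched arrays and 11.83, 11.71 and 11.62 on the luminal arrays, a difference of 0.74 ± 0.28 (adjusted p = 0.0658) that did not pass the test. The other matches were Vcl, the adhesion protein vinculin, at 0.68 ± 0.18 (adjusted p = 0.0102), and Ldb3, a muscle LIM protein, which was detected on 1 luminal array and no MaSC-enriched array. A match is a stretch of letters and not a measured binding site. Among genes with a promoter, 41 of 1372 called higher (2.99%) and 21 of 1502 called lower (1.40%) had one.

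**Figure D2:**
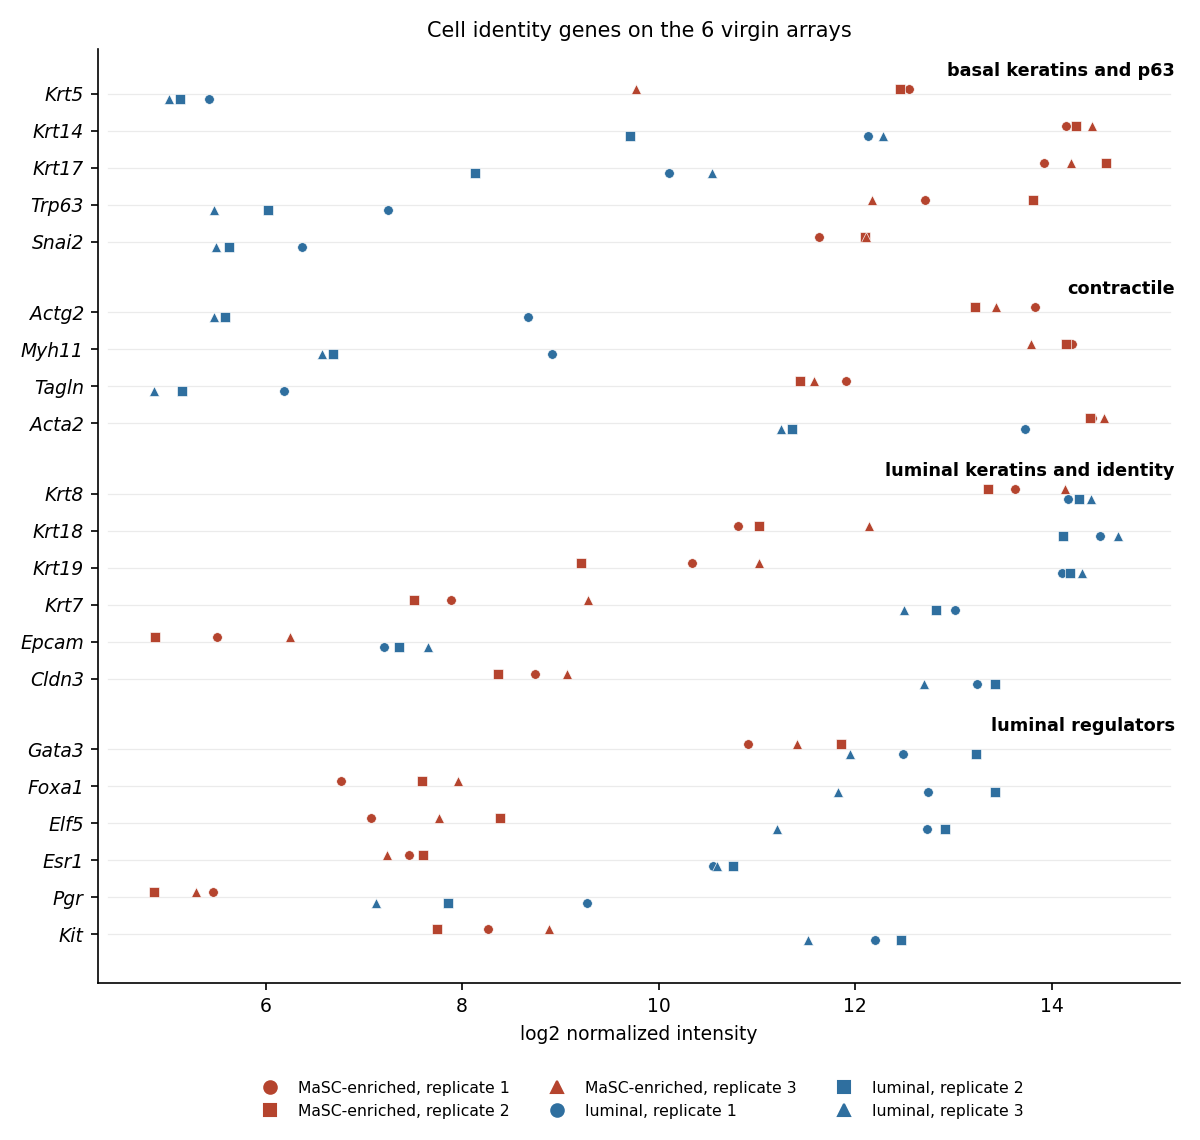
Log2 normalised intensity (horizontal axis) of basal, contractile and luminal genes on each of the 6 virgin arrays, red for MaSC-enriched and blue for luminal, with a symbol per replicate. Basal and contractile genes lie to the right in MaSC-enriched cells and luminal genes to the left, and luminal replicate 1 stands to the right of the other luminal arrays in Actg2, Myh11 and Acta2.

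The basement membrane and matrix list leaned to MaSC-enriched cells, with 17 of 26 members higher, 1 lower and a median difference of 2.21. Col7a1, the collagen of anchoring fibrils, read 12.68, 13.40 and 12.74 on the MaSC-enriched arrays and 7.47, 6.63 and 7.34 on the luminal arrays, with a difference of 5.8 ± 0.26 (adjusted p = 1.85e-09). Lama1, a laminin alpha chain, differed by 5.29 ± 0.25 (adjusted p = 2.04e-09), and the basement membrane collagen chains Col4a1, Col4a2 and Col18a1 by 4.14, 4.86 and 4.92, with adjusted p of 6.32e-08, 7.99e-08 and 6.25e-08. Fbln2 (fibulin 2) and Sparc (osteonectin, a collagen-binding protein) differed by 4.40 and 4.10, with adjusted p of 1.30e-07 and 1.45e-07. The proteoglycan Vcan was detected on no luminal array and was at least 12.3-fold higher (adjusted p = 1.68e-08). The member that ran the other way was Lama5, an alpha chain of epithelial laminins, which read 10.89, 10.13 and 11.20 on the MaSC-enriched arrays and 12.34, 12.03 and 12.41 on the luminal arrays, a difference of -1.52 ± 0.29 (adjusted p = 0.001). Proteases and their inhibitors gave 8 higher and none lower of 15. The metalloprotease Adamts18 differed by 5.84 ± 0.50 (adjusted p = 3.09e-07), the inhibitor Timp3 by 4.36 ± 0.30 (adjusted p = 4.59e-08), the serine protease Htra1 by 4.24 ± 0.36 (adjusted p = 3.06e-07), gelatinase A (Mmp2) by 4.14 ± 0.63 (adjusted p = 1.13e-04), and the plasminogen activators Plat and Plau by 2.93 and 2.44 (adjusted p = 1.84e-05 and 0.0018). Of 25 integrins and adhesion complex genes, 15 were higher and none lower, with a median of 0.93. Without MaSC-enriched replicate 3, 2 were called lower. Itga9, a receptor for tenascin and other ligands, had the steepest difference of the integrins named, 5.42 ± 0.33 (adjusted p = 1.13e-08), while Itga6, the laminin receptor used in stem cell sorts, read 12.07, 11.72 and 11.31 on the MaSC-enriched arrays and 9.26, 9.17 and 10.22 on the luminal arrays and differed by 2.15 ± 0.29 (adjusted p = 3.26e-05). Itga1 and Itga7 were detected on no luminal array and were at least 5.68-fold and at least 4.06-fold higher (adjusted p = 1.35e-05 and 0.00175). The intracellular linkers Ilk and Parva differed by 1.68 and 1.54 (adjusted p = 2.63e-06 and 4.33e-05).

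Transcription factors of basal and mesenchymal cells included 16 higher and 1 lower of 27, with a median of 1.25, and 2 were lower without MaSC-enriched replicate 2. Snai2, the zinc finger repressor Slug, read 11.63, 12.10 and 12.11 on the MaSC-enriched arrays and 6.37, 5.62 and 5.49 on the luminal arrays. Its MaSC-enriched arrays lay within 1 log2 unit of each other, 1 luminal array did not detect it, and the difference was 6.12 ± 0.34 (adjusted p = 4.92e-09). Id4, an inhibitor of helix-loop-helix factors, differed by 5.59 ± 0.58 (adjusted p = 2.73e-06), and Tbx2, a T-box factor that no luminal array detected, was at least 5.44-fold higher (adjusted p = 2.55e-07). Etv5, an ETS factor downstream of FGF receptors, differed by 2.52 ± 0.30 (adjusted p = 1.20e-05), and Tead1, the DNA-binding partner of the Hippo effectors, by 2.40 ± 0.21 (adjusted p = 3.63e-07). The early growth response gene Egr3 differed by 2.32 ± 0.26 (adjusted p = 6.64e-06). The single lower member, the homeobox gene Meis1, read 9.14, 10.41 and 8.42 on the MaSC-enriched arrays and 10.67, 11.17 and 10.10 on the luminal arrays with overlapping groups, and its difference of -1.33 ± 0.40 (adjusted p = 0.0203) lost its call when MaSC-enriched replicate 1 or 3 (adjusted p = 0.0583 and 0.0885) or luminal replicate 1 or 2 (adjusted p = 0.0556 and 0.093) was left out.

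Luminal keratins and identity genes showed the mirror image. Of 20 tested, 17 were lower in MaSC-enriched cells, none higher, and the median difference was -2.70. Krt18 and Krt19, simple keratins, read 10.81, 11.02 and 12.14 and 10.33, 9.21 and 11.02 on MaSC-enriched arrays against 14.49, 14.11 and 14.67 and 14.10, 14.19 and 14.31 on luminal arrays. In both, MaSC-enriched replicate 3 was the highest of its group. The differences were -3.10 ± 0.34 (adjusted p = 5.22e-06) and -4.01 ± 0.39 (adjusted p = 1.37e-06). Krt8, the partner of Krt18, read 13.62, 13.35 and 14.13 on the MaSC-enriched arrays and 14.17, 14.27 and 14.40 on the luminal arrays, all near the top of the scale, and its difference of -0.58 ± 0.21 (adjusted p = 0.0532) did not pass. Krt7, another simple keratin, differed by -4.55 ± 0.36 (adjusted p = 1.77e-07). The surface protein Ly6d read 7.69, 8.85 and 9.17 on the MaSC-enriched arrays and 14.01, 13.85 and 13.31 on the luminal arrays, a difference of -5.15 ± 0.39 (adjusted p = 1.02e-07). Elf5, the ETS factor of alveolar progenitors, read 7.08, 8.38 and 7.76 on the MaSC-enriched arrays and 12.73, 12.92 and 11.20 on the luminal arrays and differed by -4.54 ± 0.47 (adjusted p = 2.57e-06). Kit, the stem cell factor receptor, differed by -3.76 ± 0.41 (adjusted p = 4.58e-06). Gata3, the GATA factor of luminal fate, read 10.90, 11.85 and 11.40 on the MaSC-enriched arrays and 12.49, 13.23 and 11.95 on the luminal arrays. Its groups came close to each other, and its difference of -1.17 ± 0.31 (adjusted p = 0.0107) did not pass without MaSC-enriched replicate 1 (adjusted p = 0.0504) or luminal replicate 2 (adjusted p = 0.0591).

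Genes of luminal progenitors were lower in 11 of 19, with none higher and a median of -1.61. Those named were Cyp24a1, which inactivates vitamin D, at -3.50 ± 0.28 (adjusted p = 1.70e-07), the lipopolysaccharide coreceptor Cd14 at -3.26 ± 0.33 (adjusted p = 1.75e-06), the retinoic acid enzyme Aldh1a3 at -2.89 ± 0.48 (adjusted p = 2.64e-04), and Lbp, the lipopolysaccharide-binding protein, at -1.86 ± 0.34 (adjusted p = 5.61e-04). Of hormone-sensing luminal genes, 11 of 15 were lower and none higher, with a median of -2.08. Without luminal replicate 3, 1 was called higher. Esr1, the estrogen receptor, read 7.46, 7.60 and 7.23 on the MaSC-enriched arrays and 10.55, 10.75 and 10.59 on the luminal arrays. The luminal arrays lay close together, and the difference was -3.20 ± 0.21 (adjusted p = 3.05e-08). Pgr, the progesterone receptor and an estrogen target, was detected on no MaSC-enriched array and read 9.27, 7.86 and 7.12 on luminal arrays, at least 5.53-fold lower in MaSC-enriched cells (adjusted p = 4.77e-05). Prom1, the surface marker of hormone-sensing luminal cells, was also detected on no MaSC-enriched array and was at least 2.34-fold lower (adjusted p = 1.68e-06). Foxa1, the forkhead partner of the estrogen receptor, read 6.76, 7.59 and 7.96 on the MaSC-enriched arrays and 12.74, 13.42 and 11.83 on the luminal arrays, a difference of -5.22 ± 0.44 (adjusted p = 2.71e-07).

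Milk and alveolar genes were lower in 18 of 22, with none higher and a median of -2.82, although these glands were not lactating. Without luminal replicate 1, 1 was called higher. Wap, whey acidic protein, read 7.58, 7.98 and 6.41 on the MaSC-enriched arrays and 12.56, 9.76 and 10.45 on the luminal arrays. Luminal replicate 1 exceeded the other luminal arrays by more than 2 log2 units, and the difference was -3.60 ± 0.56 (adjusted p = 1.37e-04). Csn2, beta-casein, read 11.27, 11.13 and 12.67 on the MaSC-enriched arrays and 14.05, 14.49 and 14.68 on the luminal arrays, a difference of -2.72 ± 0.33 (adjusted p = 1.40e-05). Lalba, the regulatory subunit of lactose synthase, differed by -3.87 ± 0.51 (adjusted p = 2.99e-05). Btn1a1, butyrophilin of the milk fat globule, differed by -4.35 ± 0.45 (adjusted p = 2.70e-06), and the coregulator Cited4, the mucin Muc15 and the whey acidic domain protein Wfdc18 by -3.81, -3.82 and -3.76, with adjusted p of 9.25e-07, 2.24e-05 and 8.14e-06. Synthesis of lipid and sterol was less polarised, with 8 lower and 2 higher of 26 and a median of -0.37. Without luminal replicate 1, 5 were lower. Lpin1, a phosphatidate phosphatase, and Plin2, which coats lipid droplets, differed by -3.01 ± 0.35 (adjusted p = 9.36e-06) and -2.92 ± 0.36 (adjusted p = 1.54e-05). The higher pair was Fabp5, a fatty acid carrier of stratified epithelia, at 2.35 ± 0.44 (adjusted p = 7.62e-04), and Elovl5, a fatty acid elongase, at 0.57 ± 0.20 (adjusted p = 0.0487), whose call was lost when any virgin array other than MaSC-enriched replicate 3 was left out, with adjusted p from 0.0549 without luminal replicate 2 to 0.13 without MaSC-enriched replicate 2.

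Tight junction and apical polarity genes followed the luminal keratins: 14 of 19 were lower, 1 higher, and the median was -2.63. Claudins, which seal the space between cells, led the list. Of all 12 claudin genes tested, 7 were lower and 2 higher, and the higher pair, Cldn15 and Cldn12, was not in the list. Cldn6 differed by -5.10 ± 0.38 (adjusted p = 7.93e-08), Cldn3 by -4.39 ± 0.31 (adjusted p = 5.52e-08), Cldn4 by -3.83 ± 0.53 (adjusted p = 5.16e-05) and Cldn10 by -3.11 ± 0.48 (adjusted p = 1.26e-04). Ocln (occludin) and Tjp3 (a scaffold of the junction) were detected on no MaSC-enriched array and were at least 5.57-fold and at least 10.9-fold lower (adjusted p = 9.39e-07 and 5.11e-07). Pard3, a polarity scaffold, was the higher member at 0.97 ± 0.33 (adjusted p = 0.0394), and its call was lost when any virgin array other than MaSC-enriched replicate 3 was left out, with adjusted p from 0.0636 without luminal replicate 1 to 0.134 without MaSC-enriched replicate 2. Cadherins, desmosomes and gap junctions were called in both directions, with 4 higher and 7 lower of 19. Without luminal replicate 3 there were 5 higher and 3 lower, and under median scaling 4 and 3. The plakophilins Pkp1 and Pkp2, which anchor desmosomes, ran in opposite directions: Pkp1 read 10.98, 10.92 and 12.89 on the MaSC-enriched arrays and 8.43, 8.64 and 9.57 on the luminal arrays, a difference of 2.71 ± 0.45 (adjusted p = 2.47e-04), and Pkp2 read 7.40, 6.53 and 7.39 on the MaSC-enriched arrays and 11.42, 11.21 and 11.20 on the luminal arrays, a difference of -4.17 ± 0.27 (adjusted p = 1.99e-08). In neither did the groups overlap. The connexins did so too. Gja1 differed by 2.82 ± 0.23 (adjusted p = 2.49e-07) and Gjb2 by -2.40 ± 0.69 (adjusted p = 0.0157), the second at -1.26 without MaSC-enriched replicate 2 and not called without luminal replicate 1 (adjusted p = 0.0677).

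Ion, water and solute transporters were lower in 12 of 21 and higher in 2, with a median of -1.46. The epithelial sodium channel subunits Scnn1a and Scnn1b differed by -3.91 ± 0.51 (adjusted p = 2.67e-05) and -3.61 ± 0.42 (adjusted p = 8.19e-06), the folate receptor Folr1 by -4.42 ± 0.53 (adjusted p = 1.08e-05), the carbonic anhydrase Car2 by -3.41 ± 0.56 (adjusted p = 2.50e-04) and the potassium channel Kcnn4 by -3.29 ± 0.46 (adjusted p = 5.27e-05). The higher pair was the membrane carbonic anhydrase Car12, at 3.12 ± 0.30 (adjusted p = 9.88e-07), and the calcium channel Trpv6, at 1.34 ± 0.39 (adjusted p = 0.0176), whose call was lost without MaSC-enriched replicate 1 (adjusted p = 0.0545) or luminal replicate 2 (adjusted p = 0.0639).

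Wnt ligands and modulators were expressed from both layers, each with its own set. Of 32 tested members, 16 were higher in MaSC-enriched cells and 5 lower, with a median of 0.87. Among ligands, Wnt10a read 11.74, 8.86 and 12.07 on the MaSC-enriched arrays and 5.18, 5.04 and 5.28 on the luminal arrays and Wnt6 read 9.96, 9.85 and 8.79 on the MaSC-enriched arrays and 5.02, 4.93 and 5.07 on the luminal arrays. No luminal array detected either, and they were at least 38.4-fold and at least 15-fold higher (adjusted p = 3.12e-06 and 1.24e-08). Wnt4, the ligand that progesterone induces, read 6.17, 6.11 and 7.14 on the MaSC-enriched arrays and 10.45, 10.33 and 10.68 on the luminal arrays, the opposite pattern, with a difference of -4.01 ± 0.31 (adjusted p = 1.16e-07). Wnt5a, Wnt5b and Wnt7b were also lower in MaSC-enriched cells, at -2.48 ± 0.42 (adjusted p = 3.56e-04), -1.40 ± 0.28 (adjusted p = 0.00119) and -3.68 ± 0.35 (adjusted p = 1.14e-06). The fifth lower member, the agonist Rspo1, was detected on 2 luminal arrays only and was at least 2.46-fold lower (adjusted p = 0.0169), with its call lost without luminal replicate 3 (adjusted p = 0.0582). A secreted inhibitor and a dickkopf family member were on the basal side. Wif1, which binds Wnts, read 12.25, 12.44 and 11.81 on the MaSC-enriched arrays and 7.85, 6.36 and 6.18 on the luminal arrays, a difference of 5.37 ± 0.38 (adjusted p = 4.90e-08), and Dkk3, of the dickkopf family, read 12.51, 12.94 and 11.73 on the MaSC-enriched arrays and 7.26, 7.0 and 6.27 on the luminal arrays, a difference of 5.55 ± 0.31 (adjusted p = 5.20e-09). Nkd1 and Nkd2, intracellular feedback inhibitors that Wnt signalling induces, were detected on no luminal array and were at least 10.6-fold and at least 18.5-fold higher (adjusted p = 4.76e-08 and 2.67e-08). Axin2, the classical feedback target, was chosen after its values were seen. It read 8.30, 9.19 and 8.70 on the MaSC-enriched arrays and 5.37, 5.93 and 5.91 on the luminal arrays, a difference of 3.00 ± 0.31 (adjusted p = 2.53e-06), and the groups did not overlap.

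Notch genes divided evenly, with 4 higher and 4 lower of 16. Ligands were on the basal side: Dll1 read 11.70, 11.83 and 10.78 on the MaSC-enriched arrays and 7.38, 5.86 and 6.17 on the luminal arrays and differed by 4.97 ± 0.37 (adjusted p = 8.75e-08), Jag1 differed by 1.63 ± 0.40 (adjusted p = 0.00627), and Jag2 was detected on no luminal array and was at least 8.36-fold higher (adjusted p = 1.57e-04). The coactivator Maml2 was the fourth, at 1.19 ± 0.23 (adjusted p = 0.00104). Targets and a receptor were on the luminal side. Hes1 and Hey1, repressors that Notch induces, and the related factor Hes6 differed by -1.23 ± 0.31 (adjusted p = 0.00728), -2.44 ± 0.52 (adjusted p = 0.00233) and -1.29 ± 0.28 (adjusted p = 0.00272), the groups overlapping in Hey1. Notch1 read 10.02, 10.67 and 9.52 on the MaSC-enriched arrays and 11.58, 11.74 and 10.49 on the luminal arrays, with overlapping groups and a difference of -1.20 ± 0.35 (adjusted p = 0.0187). Its call was lost without MaSC-enriched replicate 3 (adjusted p = 0.0753), luminal replicate 1 (adjusted p = 0.0787) or luminal replicate 2 (adjusted p = 0.0876). Notch3, a receptor used to mark luminal progenitors, read 11.54, 10.04 and 8.44 on the MaSC-enriched arrays and 10.54, 10.97 and 10.48 on the luminal arrays and did not pass, at -0.66 ± 0.68 (adjusted p = 0.524).

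In the EGF and neuregulin family, 3 of 9 were higher and 2 lower. Nrg1, the neuregulin that signals through the ErbB receptors of neighbouring cells, read 10.35, 8.82 and 12.54 on the MaSC-enriched arrays and 5.46, 4.84 and 6.80 on the luminal arrays. It spread over more than 3 log2 units among MaSC-enriched arrays, was detected on 1 luminal array, and differed by 4.87 ± 0.69 (adjusted p = 5.69e-05). Egfr, the receptor for EGF and amphiregulin, read 11.36, 12.08 and 11.73 on the MaSC-enriched arrays and 9.48, 9.21 and 9.31 on the luminal arrays and differed by 2.39 ± 0.22 (adjusted p = 6.76e-07), whereas Erbb2 read 6.76, 7.76 and 7.85 on the MaSC-enriched arrays and 9.37, 9.89 and 9.53 on the luminal arrays and differed by -2.14 ± 0.28 (adjusted p = 2.73e-05). The groups overlapped for neither receptor. Btc, the ligand betacellulin, was lower by the contrast, at -4.00 ± 0.30 (adjusted p = 7.91e-08), and Lrig1, a brake on these receptors, was higher at 0.83 ± 0.22 (adjusted p = 0.00986).

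**Figure D3:**
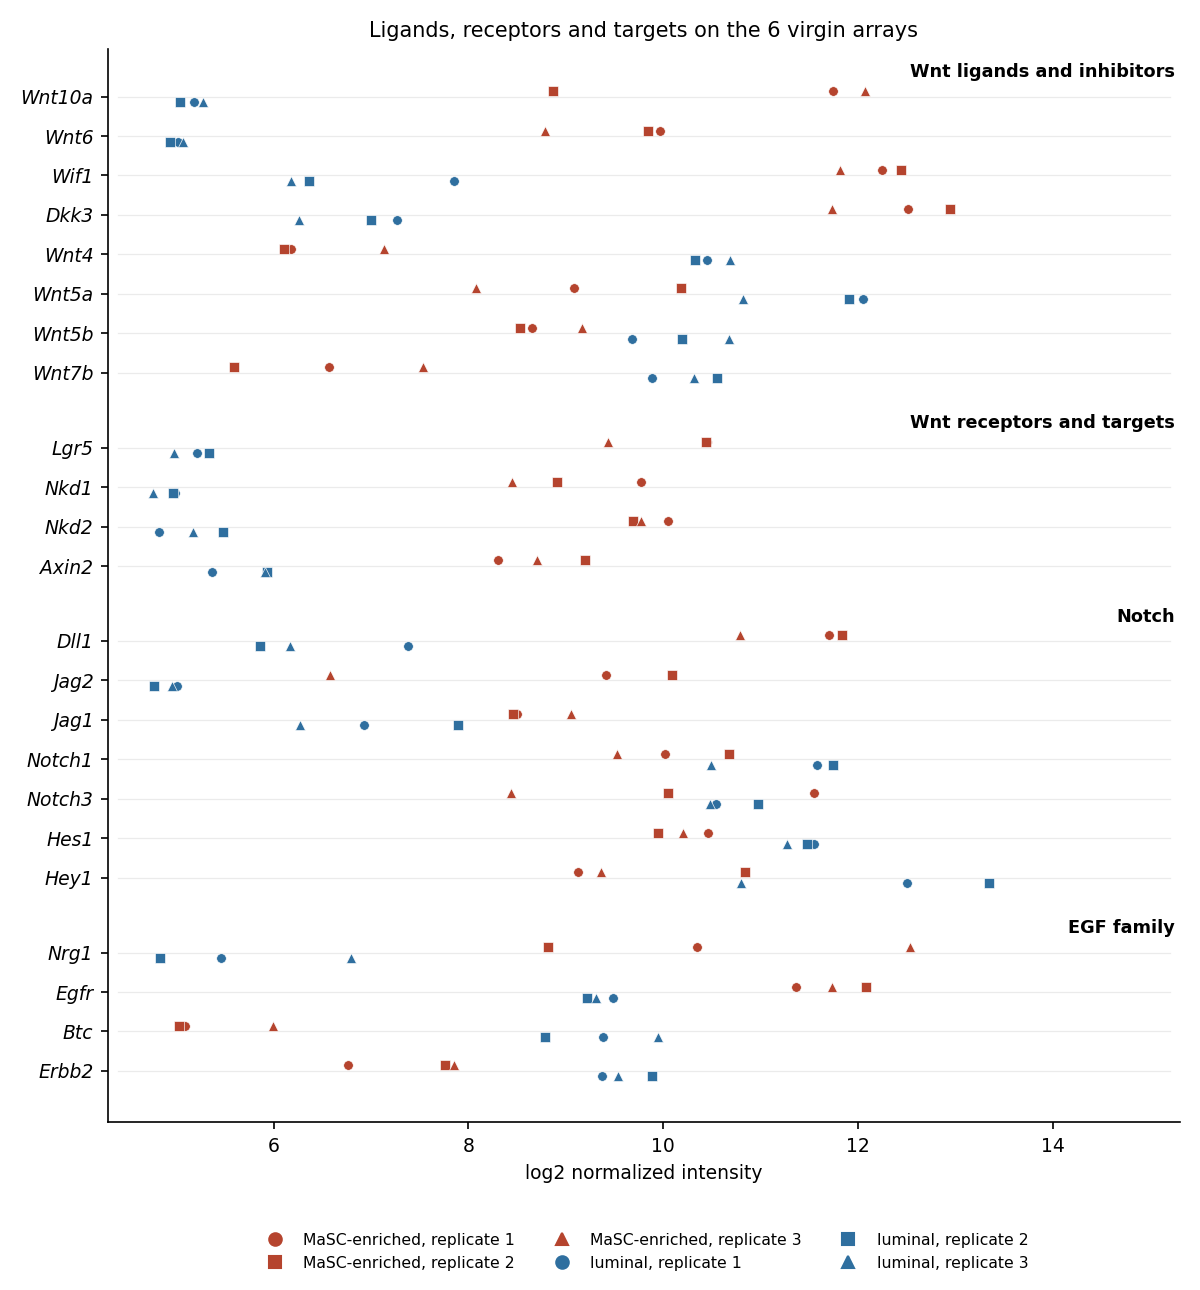
Log2 normalised intensity (horizontal axis) of Wnt, Notch and EGF family genes on the 6 virgin arrays, red for MaSC-enriched and blue for luminal, with a symbol per replicate. Wnt10a and Wnt6 lie to the right in MaSC-enriched cells and Wnt4, Wnt5a, Wnt5b and Wnt7b in luminal cells, and Dll1, Jag2 and Nrg1 are basal while Hes1, Btc and Erbb2 are luminal.

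Other growth factor genes, of the FGF, IGF and PDGF families, were higher in 15 of 27 and lower in 1, with a median of 1.42, and 2 were lower without MaSC-enriched replicate 2. Hgf, hepatocyte growth factor, read 9.36, 10.33 and 8.33 on MaSC-enriched arrays and was detected on no luminal array, at least 13.1-fold higher (adjusted p = 1.36e-05). Ccn2 (a Hippo and TGF-beta target), the lymphangiogenic Vegfc and the ligand Pdgfa differed by 4.05 ± 0.39 (adjusted p = 1.29e-06), 3.35 ± 0.24 (adjusted p = 7.06e-08) and 2.65 ± 0.35 (adjusted p = 3.49e-05). The single lower member was the receptor Fgfr2, which read 12.82, 13.10 and 12.61 on the MaSC-enriched arrays and 14.41, 14.79 and 13.44 on the luminal arrays, a difference of -1.37 ± 0.31 (adjusted p = 0.00315). TGF-beta and BMP genes gave 10 higher and 1 lower of 21, with 2 lower without MaSC-enriched replicate 3 and 3 without luminal replicate 3. The ligand Bmp7 read 10.95, 10.42 and 11.09 on the MaSC-enriched arrays and 5.43, 6.04 and 5.10 on the luminal arrays and differed by 5.29 ± 0.28 (adjusted p = 3.74e-09), the activin antagonists Fst and Fstl3 differed by 4.33 ± 0.50 (adjusted p = 7.27e-06) and 3.19 ± 0.45 (adjusted p = 6.32e-05), and the coreceptor Tgfbr3 by 3.73 ± 0.30 (adjusted p = 1.67e-07). The type I receptor Bmpr1b was the lower member, at -1.40 ± 0.30 (adjusted p = 0.00214). Axon guidance and ephrin genes were higher in 16 of 29 and lower in 1. Slit2 and Slit3, secreted repellents for Robo receptors, differed by 4.66 ± 0.25 (adjusted p = 3.74e-09) and 3.76 ± 0.57 (adjusted p = 1.12e-04), the semaphorin Sema5a by 5.36 ± 0.36 (adjusted p = 3.13e-08), and the plexins Plxnd1 and Plxnb2, semaphorin receptors, by 2.34 ± 0.35 (adjusted p = 9.62e-05) and -0.76 ± 0.20 (adjusted p = 0.00936). RANK, NF-kB and paracrine genes gave 3 higher and 5 lower of 18. Tnfrsf11b, the decoy receptor osteoprotegerin, was detected on no luminal array and was at least 13.9-fold higher (adjusted p = 1.05e-06). Its ligand Tnfsf11, RANK ligand, read 5.95, 5.40 and 5.86 on the MaSC-enriched arrays and 6.50, 5.48 and 6.72 on the luminal arrays, was detected on 2 arrays of each population and did not pass, at -0.50 ± 0.37 (adjusted p = 0.365), and RANK itself, Tnfrsf11a, differed by 1.25 ± 0.28 (adjusted p = 0.00319). Edn1, endothelin 1, differed by -2.07 ± 0.49 (adjusted p = 0.00495) and its receptor Ednrb by 2.59 ± 0.48 (adjusted p = 7.13e-04), so that the ligand's probe was higher in luminal cells and the receptor's in MaSC-enriched cells.

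Innate defence genes and chemokines divided, with 10 higher and 9 lower of 32 and a median of 0.01. The luminal members included Il33, an alarmin cytokine, at -4.13 ± 0.35 (adjusted p = 2.78e-07), lactoferrin (Ltf) at -3.43 ± 0.40 (adjusted p = 9.40e-06), the acute phase protein Saa1 at -2.55 ± 0.48 (adjusted p = 8.24e-04), and the lipopolysaccharide receptor Tlr4 at -2.40 ± 0.22 (adjusted p = 7.65e-07). The basal members included, beside Cxcl14, the chemokines Cxcl12 and Ccl2 at 3.53 ± 0.38 (adjusted p = 3.53e-06) and 2.83 ± 0.63 (adjusted p = 0.00315), and the macrophage growth factor Csf1 at 2.72 ± 0.55 (adjusted p = 0.0015). Interferon and antigen presentation genes gave 5 higher and 7 lower of 25. The higher count was 2 without MaSC-enriched replicate 1 and 3 without luminal replicate 1 or 3. The immunoproteasome subunits Psmb8 and Psmb9 differed by -2.75 ± 0.35 (adjusted p = 1.84e-05) and -2.40 ± 0.28 (adjusted p = 9.66e-06), and the deubiquitylase Usp18 by -2.39 ± 0.25 (adjusted p = 3.12e-06), while the membrane protein Ifitm1 differed by 1.23 ± 0.19 (adjusted p = 1.76e-04).

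The remaining lists covered general cell functions. Of 24 proliferation genes, 2 were higher and none lower, with a median of 0.25. The count of higher members depended on the setting, with 8 under array weights, 4 without luminal replicate 2 and 1 without MaSC-enriched replicate 1 or luminal replicate 3. The first was Ccnd2, cyclin D2, which read 11.91, 10.48 and 10.69 on the MaSC-enriched arrays and 6.52, 5.39 and 5.49 on the luminal arrays, a difference of 5.22 ± 0.39 (adjusted p = 8.27e-08). The second was Ccne1, cyclin E1, at 1.11 ± 0.32 (adjusted p = 0.0158), whose call was lost without MaSC-enriched replicate 1 (adjusted p = 0.0681) or luminal replicate 3 (adjusted p = 0.0501). MaSC-enriched replicate 1 was the highest of its group in 22 of the 24 members, and luminal replicate 1 the lowest of its group in 18. Of 13 Myc and ribosome biogenesis genes, 6 were higher and 1 lower. Myc differed by 1.37 ± 0.35 (adjusted p = 0.00831), and its call was lost with chip as a fixed block (adjusted p = 0.0596). Within one of the chips that held both virgin populations it differed by 1.54 and within the other by 0.0136. The nucleolar proteins Nop58 and Pes1 differed by 1.46 ± 0.24 (adjusted p = 2.72e-04) and 1.15 ± 0.21 (adjusted p = 5.79e-04), and the lower member was the Myc paralog Mycl, which read 7.42, 8.04 and 6.83 on the MaSC-enriched arrays and 11.24, 10.45 and 10.64 on the luminal arrays, a difference of -3.35 ± 0.30 (adjusted p = 5.55e-07). Oxidative phosphorylation gave 1 higher and 4 lower of 27. The lower count was 8 without MaSC-enriched replicate 1, 7 without luminal replicate 3, and 1 or 2 without any other single array, and it was 0 under median scaling or cyclic loess. The higher one was the coactivator Ppargc1b, at 1.65 ± 0.42 (adjusted p = 0.00823), or 1.05 without luminal replicate 3, and the 4 lower were the subunits Ndufa4, Cox7b, Atp5c1 and Cox5b, at -0.77, -0.93, -0.59 and -0.54, with adjusted p of 0.0143, 0.0472, 0.0481 and 0.0333. None of these 4 calls held when each array in turn was left out. Ndufa4 was lost without MaSC-enriched replicate 2 (adjusted p = 0.053), Cox7b and Atp5c1 without MaSC-enriched replicate 3 or either of luminal replicates 1 and 2 (adjusted p up to 0.211 and 0.178), Cox7b and Cox5b without MaSC-enriched replicate 2 (adjusted p = 0.0968 and 0.0949), and Cox5b without any 1 luminal array (adjusted p up to 0.0933). Secretory pathway and unfolded protein response genes gave 4 lower and 1 higher of 20, with 6 lower without MaSC-enriched replicate 1, 2 lower without MaSC-enriched replicate 3 or luminal replicate 1, and 2 higher without MaSC-enriched replicate 1, 2 or 3. Among the 4 was Xbp1, the factor that expands the endoplasmic reticulum, at -1.22 ± 0.27 (adjusted p = 0.00273). The higher one was the stress factor Ddit3, at 1.08 ± 0.29 (adjusted p = 0.0117), not called without luminal replicate 1 (adjusted p = 0.0559). None of 11 housekeeping genes was called by limma in either direction, and 1 had an unadjusted p below 0.05. Without MaSC-enriched replicate 1, 1 was called higher. The dissociation stress genes were immediate-early and heat shock genes that tissue digestion induces. Several read high on the scale in both populations, where compression was not tested. Ier3, for one, read 14.45, 14.71 and 14.26 on MaSC-enriched and 14.58, 14.19 and 14.33 on luminal arrays. Of the 15 tested, 1 was lower, Jund, at -1.23 ± 0.35 (adjusted p = 0.0156). Its call was lost without luminal replicate 1 or 2 (adjusted p = 0.0543 and 0.0502). Jund was at -0.71 without MaSC-enriched replicate 3. Without MaSC-enriched replicate 1 or 2 the lower count was 2, and without luminal replicate 3 it was 3.

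**Figure D4:**
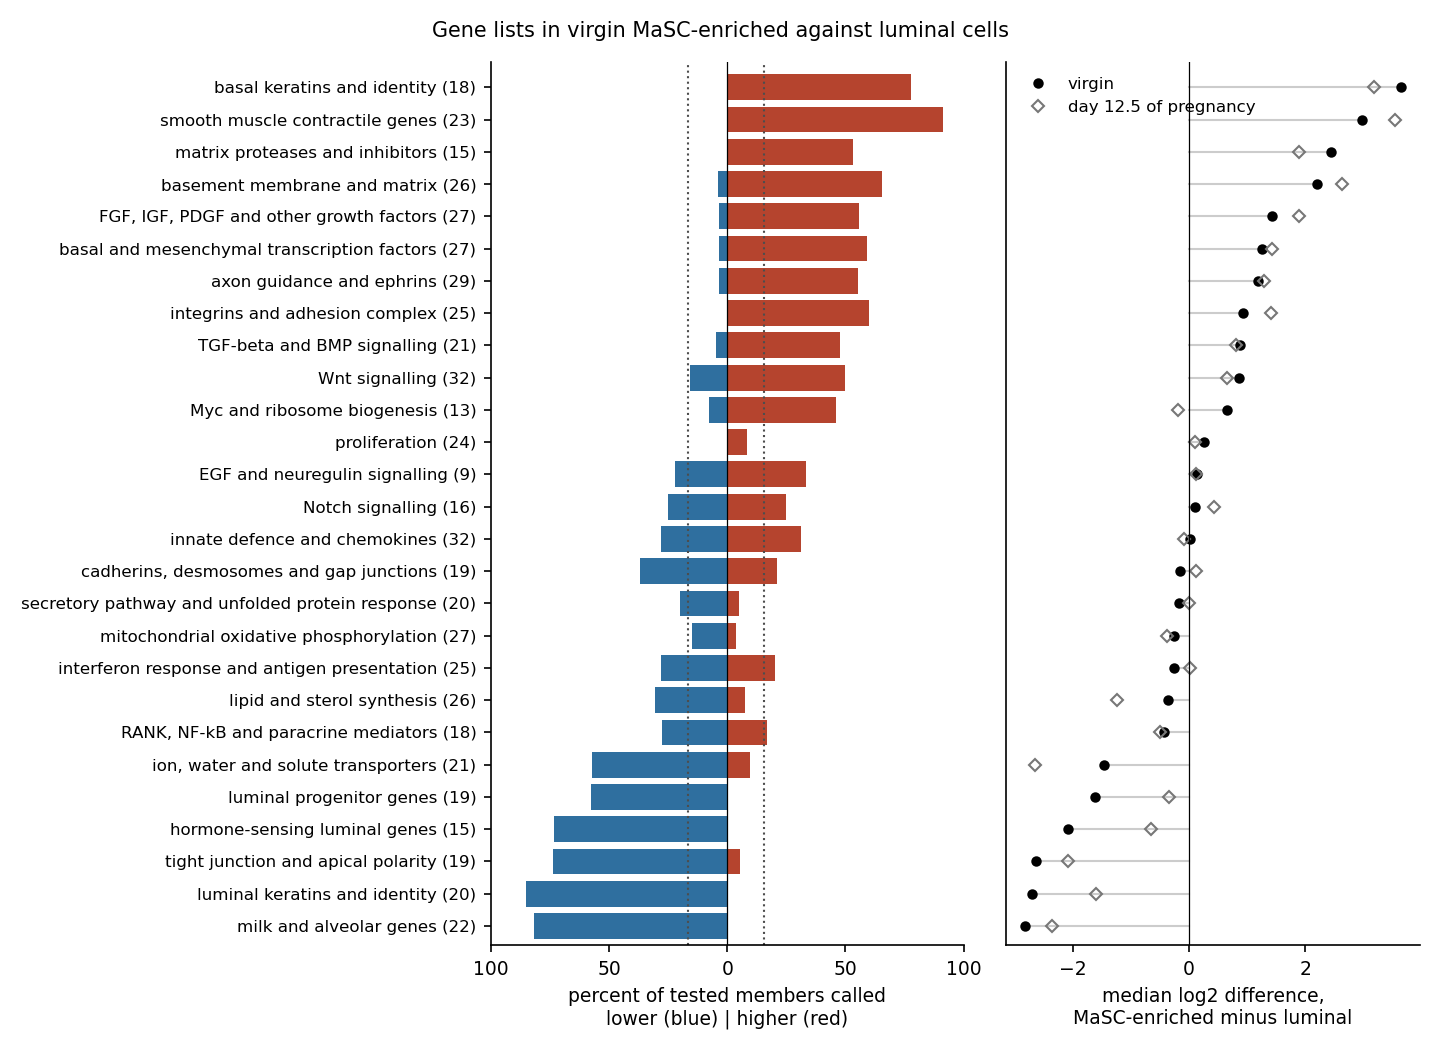
Left, percent of each list's tested members called higher (red, to the right) or lower (blue, to the left) in MaSC-enriched cells, with dotted lines at the 15.5% and 16.6% of all genes. Right, the list's median log2 difference in virgin glands (filled circles) and at day 12.5 of pregnancy (open diamonds), from 3.64 for basal identity to -2.82 for milk genes in virgin glands.

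Markers of other cell types were measured on the same arrays, and their part in the differences above was not tested. Fibroblast markers were detected in both populations, with all 12 detected on at least 1 array of each. Their summed level, as log2 of the sum, ran from 14.50 to 15.22 on MaSC-enriched and from 13.69 to 15.11 on luminal arrays, and luminal replicate 2 was the highest luminal array in all 12. Dcn alone read 14.26, 14.72 and 13.50 on the luminal arrays and so made up most of their sums. On the MaSC-enriched arrays Dcn read 14.17, 14.38 and 13.54. Of the 12, 4 were called higher in MaSC-enriched cells: Fbln1, Col5a1, Col6a1 and Thy1, at 3.77, 3.31, 2.55 and 2.24 (adjusted p = 3.44e-05, 8.24e-05, 0.00381 and 0.00426). Pericyte and vascular smooth muscle markers gave 6 higher and 1 lower of 10, and their summed level ran from 12.04 to 13.75 against 11.59 to 12.22, beside the contractile and matrix genes above, which such cells also express. The regulator Rgs5 differed by 3.06 ± 0.60 (adjusted p = 0.00109), the receptor Pdgfrb by 2.58 ± 0.53 (adjusted p = 0.00168) and the adhesion molecule Mcam by 3.12 ± 0.30 (adjusted p = 1.23e-06). The lower member was the aminopeptidase Anpep, at -1.16 ± 0.35 (adjusted p = 0.0228), whose call was lost without MaSC-enriched replicate 1 or 3 or luminal replicate 1 or 2 (adjusted p = 0.0792, 0.083, 0.0774 and 0.114). Endothelial markers, of which 9 of 10 were detected in each population, summed to 12.54 to 13.61 against 11.43 to 11.95, with 1 of 9 called, Esam, at 2.14 ± 0.43 (adjusted p = 0.0013). Without MaSC-enriched replicate 1, 5 of the 9 were called higher. Of 10 leukocyte markers on the array, 3 were detected on none of the 6 arrays, and none of the 6 tested was called by limma or had an unadjusted p below 0.05. Erythroid markers summed to 8.19 to 11.39 on MaSC-enriched and 11.39 to 13.66 on luminal arrays, and Hba-a1, alpha-globin, differed by -2.54 ± 0.87 (adjusted p = 0.0387), not called without MaSC-enriched replicate 1 (adjusted p = 0.179), luminal replicate 2 (adjusted p = 0.161) or luminal replicate 3 (adjusted p = 0.0723). The other called member, the heme synthesis enzyme Alas2, was detected on no MaSC-enriched array and was at least 1.72-fold lower (adjusted p = 0.0197), not called without MaSC-enriched replicate 1 (adjusted p = 0.0608) or luminal replicate 2 (adjusted p = 0.105). Adipocyte markers summed to 8.87 to 10.54 against 8.15 to 8.46, and Lep, leptin, was at least 3.87-fold higher in MaSC-enriched cells (adjusted p = 1.70e-04). It was the single call of 3 tested, and without MaSC-enriched replicate 3 there were 2. The sum of 10.54 was that of MaSC-enriched replicate 2, where Adipoq read 9.50 against 5.62 and 5.10 on replicates 1 and 3. Plin1 and Retn were detected on none of the 6 arrays, and their signals, like those of other undetected markers, are in the sums. Of 4 Schwann cell markers tested, 3 were higher, Pmp22, Ncam1 and Cnp, at 3.08, 2.84 and 1.76 (adjusted p = 5.20e-07, 2.40e-06 and 4.22e-04), on a sum of 13 to 13.16 against 11.05 to 11.74. The fourth, Mbp, was lower at -2.58 ± 0.65 (adjusted p = 0.00691), and its probes were called in both directions. Pmp22 alone read 12.94, 12.64 and 12.74 on the MaSC-enriched arrays and so made up most of their sum. Of the untested Schwann cell markers, S100b was detected on none of the 6 arrays and Cdh19 on 1 MaSC-enriched array. Skeletal muscle markers were lower in 3 of 6 on a sum of 8.41 to 8.82 against 9.17 to 10.89. These were Acta1 and Mylpf, at -2.53 ± 0.63 (adjusted p = 0.00711) and -1.87 ± 0.38 (adjusted p = 0.00137), and Pvalb, which no MaSC-enriched array detected and which was at least 3.65-fold lower (adjusted p = 8.71e-04).

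Whether a difference between the populations was particular to virgin glands was tested as the virgin difference minus the difference at day 12.5 of pregnancy, which was called for 994 of 11350 genes (8.76%). Without virgin MaSC-enriched replicate 2 the count was 1622. Trp63, Krt5, Krt17, Snai2, Actg2, Myh11, Wif1, Bmp7 and Ccnd2 differed in both states, and their change in difference was not called. Krt5, for one, had a change of 0.62 ± 0.68 (adjusted p = 0.659). Genes were named largely by the size of their virgin difference, which favours finding that difference steeper in virgin glands. Several genes of the basal side had a steeper difference in virgin glands. Lgr5 was detected on 3 of 3 virgin and 1 of 4 pregnant MaSC-enriched arrays and on no luminal array of either state. Its change was called (adjusted p = 1.17e-05), and its size is not given because it rests on signals below detection. Serpinb11 went from 6.86 to 1.98, a change of 4.88 ± 0.76 (adjusted p = 0.00101), and Dkk3 from 5.55 to 2.31, a change of 3.24 ± 0.41 (adjusted p = 1.96e-04). Axin2 went from 3.00 to 0.34, a change of 2.65 ± 0.41 (adjusted p = 9.44e-04), and Krt14 from 2.89 to 0.65, a change of 2.25 ± 0.62 (adjusted p = 0.0372). Krt14 was close to the top of the scale on virgin MaSC-enriched arrays, and compression of its differences was not tested. The call for Krt14 was lost without MaSC-enriched replicate 1 (adjusted p = 0.0581) or replicate 3 (adjusted p = 0.0614), with chip as a fixed block (adjusted p = 0.163) or a random block (adjusted p = 0.0523), and under 4 other settings. Luminal genes did likewise. Ido1 was detected on all 6 virgin arrays and on no pregnant array of either population, and its change was called (adjusted p = 7.65e-06). Esr1 went from -3.20 to -1.31, a change of -1.89 ± 0.28 (adjusted p = 7.65e-04), and Ly6d went from -5.15 to -0.75, a change of -4.40 ± 0.52 (adjusted p = 1.01e-04). Among genes whose difference had opposite signs in the 2 states were Wnt5a at -2.48 and 2.48, Hey1 at -2.44 and 2.07, Fgfr2 at -1.37 and 3.45, and Igf2, insulin-like growth factor 2, at 2.49 and -3.44 (adjusted p of the change = 6.85e-05, 9.23e-04, 5.73e-06 and 1.70e-04). For Tnfsf11 the difference was steeper in pregnant glands, with -0.50 in virgin and -4.09 in pregnant glands, a change of 3.59 ± 0.50 (adjusted p = 4.11e-04). These changes join the effects of pregnancy in both populations and do not say in which one the level moved.

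**Figure D5:**
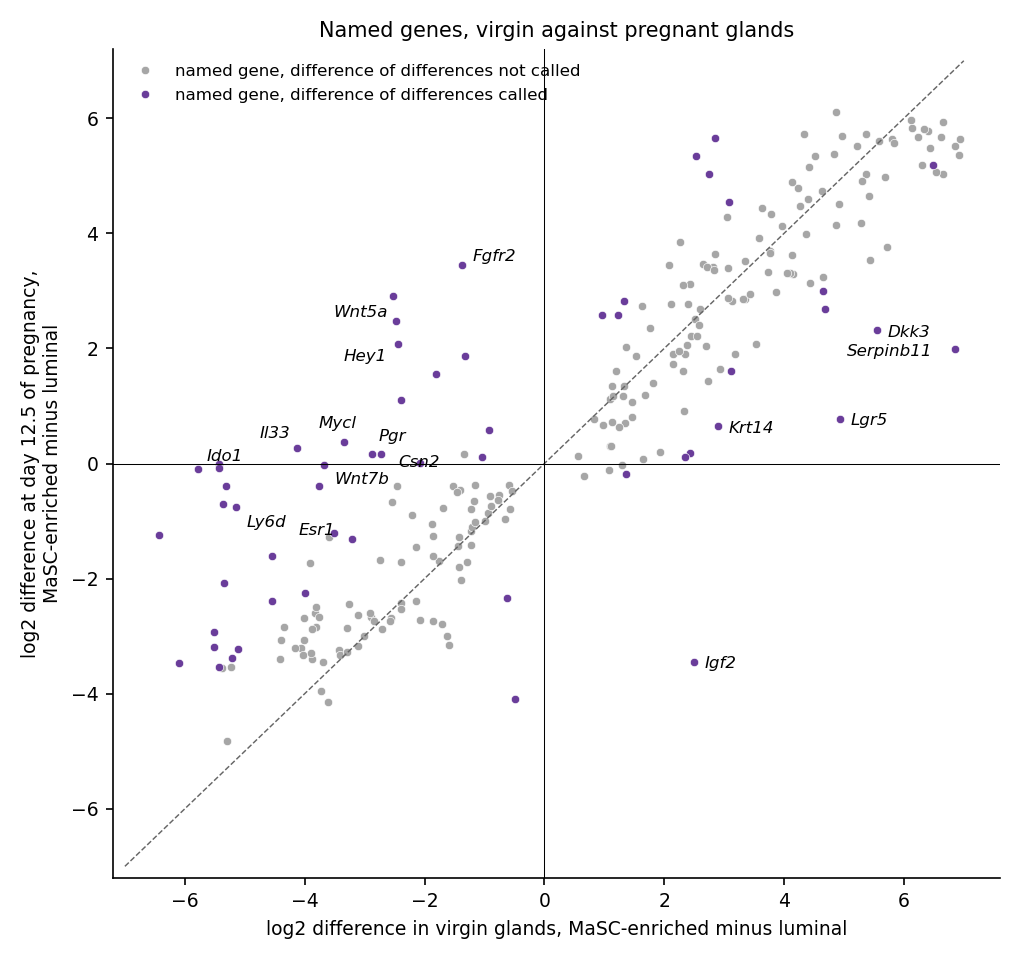
Log2 difference between MaSC-enriched and luminal cells in virgin glands (horizontal axis) against the same difference at day 12.5 of pregnancy (vertical axis), 1 point per gene named by the rule, purple where the change in difference was called. Most points lie near the dashed line of equal differences, and Lgr5, Krt14, Ido1, Wnt5a, Fgfr2 and Igf2 lie away from it.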

How the data were processed

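Total RNA of 14 sorted samples was hybridised to Illumina mouse bead arrays, 1 array per sample, with up to 250 ng of RNA labelled. The deposited intensity values are mean bead signals per probe that were not normalised, each beside a deposited detection p-value, per the file headers. A deposited log2 matrix of the same arrays holds the authors' normalised values, and the submitters' processing notes name BeadStudio and limma without versions or steps. In R 4.3.3, limma 3.58.1 corrected the background by normexp (function nec, offset 16), taking the level of the negative controls from the detection p-values. Arrays were then quantile normalised and put on the log2 scale.

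Of 45281 probes, 20906 with a detection p below 0.05 on at least 3 of the 14 arrays were tested. A model with 4 group means was fitted to all 14 arrays with limma's lmFit and eBayes, with 10 residual degrees of freedom and 4.74 from the prior, and p-values were adjusted by Benjamini-Hochberg over all tested probes. Genes were named through the platform annotation, and a gene with several tested probes (4385 of 11350) is represented by the probe with the highest mean over all arrays. In 12 of these genes, probes were called in both directions. Replicates are pools of mice, whether a number marks the same pool in both populations was not stated, and the number of arrays limits the precision.

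The genes named are the 15 steepest rises and falls among called genes with separate groups, up to 8 called members of each of 37 gene lists by size of difference together with called members opposite to their list, and a fixed set of markers. Both the lists and the markers were chosen with earlier results of these data known. Oxtr and Erbb3, of the fixed set, were on the array but did not pass the detection filter. The fit was tested on simulated data. Promoter sequences are from RefSeq.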

Additional observations from a re-analysis of the deposited data

Results flagged for a closer look

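Each gene below had a difference between MaSC-enriched and luminal cells that itself differed between virgin glands and day 12.5 of pregnancy, by limma's interaction term with an adjusted p below 0.05. Values are the virgin difference minus the pregnant difference in log2 units. A call of this kind was made for 8.76% of all genes tested. The genes below were named largely by the size of their virgin difference, which favours a steeper virgin one, so they are no sample of all genes. In 18 of the 51 genes, at least 1 of the 4 groups had no array that detected the gene, so the fitted value rests on signals below detection and is no measured size. These are Ang4, Aoc1, Arg1, Btc, Cited1, Cldn6, Cxcl15, Cyp3a57, Dmbt1, Ido1, Ldb3, Lgr5, Nkd2, Pgr, Prom1, Slit2, Upk3a and Wnt7b.

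On the basal side, the excess in MaSC-enriched cells was larger in virgin glands for Serpinb11 (change 4.88), Lgr5 (4.16), Dkk3 (3.24), Axin2 (2.65), Krt14 (2.25), Fabp5 (2.23), Nkd2 (2.00), Slit2 (1.66), Mcam (1.51) and Cdh3 (1.31). It was smaller in virgin glands for Etv5 (-2.82), Ncam1 (-2.81), Pmp22 (-1.47), Ifitm1 (-1.36), Vcl (-1.33) and Cnn2 (-1.24). Krt14 was close to the top of the scale on virgin MaSC-enriched arrays, and compression of its change was not tested.

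The luminal excess was larger in virgin glands for enzymes, defence proteins and transporters: Ido1 changed by -5.68, Ang4 by -5.42, Dmbt1 by -5.36, Cyp3a57 by -5.20, Aoc1 by -4.93, Upk3a by -4.65, Slc5a5 by -3.28, Cxcl15 by -2.64, Aqp5 by -2.57, Arg1 by -2.31, Cyp24a1 by -2.30, Cited1 by -1.90, Cldn6 by -1.89 and Prr15l by -1.82. Among identity, hormone and milk genes, Ly6d changed by -4.40, Wfdc18 by -3.38, Pgr by -3.05, Krt7 by -2.95, Csn2 by -2.88, Elf5 by -2.15, Prom1 by -2.09, Esr1 by -1.89 and Btc by -1.74. Csn2 was close to the top of the scale on virgin luminal arrays, and compression of its change was not tested. Among signalling genes and regulators, Il33 changed by -4.40, Mycl by -3.71 and Wnt7b by -3.66.

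Genes lower in MaSC-enriched cells of virgin glands and higher in those of pregnant glands were Acta1 (change -5.43), Wnt5a (-4.96), Fgfr2 (-4.82), Hey1 (-4.51), Usp18 (-3.49) and Meis1 (-3.19). Igf2 (change 5.94) was higher in MaSC-enriched cells of virgin glands and lower in those of pregnant glands. For Tnfsf11 (3.59) and Ldb3 (2.58) the virgin difference was not called and the pregnant difference was below 0. What lies behind these changes was not tested.

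Of these 51 genes, 39 kept the call under each of 19 other processing settings, left-out virgin arrays included, and none changed sign. The other 12 lost it under at least 1 setting. Elf5 lost it under 13, Krt14 under 8, Cnn2 under 7, Fabp5 and Mcam under 6, Cdh3 and Pmp22 under 5, Cldn6 under 4, Ifitm1 under 2, and Csn2, Vcl and Wfdc18 under 1.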

How the results depend on the processing

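No called gene named here changed sign under any alternative, and no called gene was called in the other direction. Notch3, which was not called, went from -0.66 to 0.13 without MaSC-enriched replicate 3, and within the chips that held both virgin populations it read 1.01 and -2.04. The alternatives varied background correction, scaling, the detection filter, chip, array weights, the arrays fitted and the probe that stands for a gene. With the 6 virgin arrays fitted alone, the calls fell to 3517 probes, with 1135 genes higher and 1018 lower, and 2152 of the 3649 genes were still called the same way. That fit has fewer residual degrees of freedom by construction. Leaving out 1 virgin array at a time gave 4770 to 6429 probes, 1434 to 1826 genes higher, 1464 to 2050 genes lower and 687 to 1622 genes with a called change between virgin and pregnant glands. The lowest counts of genes came without luminal replicate 1, and the 1622 came without MaSC-enriched replicate 2. Array weights gave 1649 genes with such a change against 994, and the cause was not tested.

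Samples with the same replicate number correlated at 0.05, 0.42 and 0.38 in their deviations from the group means in virgin glands. As 1 of the 3 was under 0.1, the numbers were treated as names only. The labels do not state whether a number marks the same pool, and these correlations do not settle it. In 5 of 6 virgin arrays the best match was the array of the same number, and luminal replicate 1 matched MaSC-enriched replicate 2 best. With a replicate block, 6482 probes, 1874 genes higher, 1999 genes lower and 1157 changes between states were called, and 3487 of the 3649 genes were still called the same way. Chip as a random block gave 1900 genes higher and 2058 lower, with a correlation within chips of 0.194.

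Of 260 genes followed through the alternatives, 255 were called and 195 of these kept their call in every setting with a test. The 6 virgin arrays alone lost 50 calls, the widest loss of any setting, and leaving out single arrays lost 10 to 23. Median scaling and cyclic loess lost 10 and 9. Array weights ended the calls of Lrig1 and Tnfrsf11a among others, and the mean of all probes that of Mbp. Leaving out both MaSC-enriched replicate 3 and luminal replicate 1, an alternative chosen after seeing the data, as were all alternatives for the change between states, gave 1570 genes higher and 1518 lower. Genes near the detection limit have folds that depend on the background offset, and those near the top of the scale may understate a difference.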

Other observations

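Gene families formed by symbol alone, 49 in all and chosen after their values were seen, showed the layers' secreted and surface products. Of 30 collagen genes tested, 17 were higher in MaSC-enriched cells and 1 lower, with a median difference of 1.64, and all 8 called of 13 Adamts metalloproteases were higher. Of 18 serpins, 10 were higher and none lower (median 1.41), and of 6 insulin-like growth factor binding proteins, 5 were higher. On the luminal side, 6 of 7 Ly6 surface proteins, 4 of 5 mucins and 4 of 7 Tmprss transmembrane serine proteases were lower in MaSC-enriched cells and none higher. These shares stand beside 15.5% higher and 16.6% lower of all genes tested, and no test was made of a family.

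Cytosolic ribosomal protein genes, with 1 higher and 2 lower of 54 and a median of 0.04, moved little between the layers.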
